A study of Mus musculus with 12 samples.

Results

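Array probes for the metabotropic glutamate receptors were examined in hypothalamic RNA of male ICR mice that drank alcohol from adolescence to adulthood, and the receptors studied were Grm2, Grm3, Grm4, Grm5, Grm7 and Grm8. Every non-control array probe with 1 of these 6 gene names was taken, out of 27827 names on the array, which gave 12 probes. The number of probes was 2 for Grm2, 4 for Grm5, 3 for Grm7 and 1 each for Grm3, Grm4 and Grm8. The study asked how voluntary drinking through this period alters hypothalamic gene expression. Mice of 3 weeks were given tubes of water for 5 days, and from then on drinkers chose freely between water and alcohol at 5% or 10%, while water-only mice had water in both tubes. RNA was pooled before hybridization, with 9 water-only mice in 3 pools of 3 and 19 drinkers in 9 pools of 1 to 3 mice. The labels name 3 pools each of the water group, low alcohol drinkers, early alcohol drinkers and late alcohol drinkers, and describe the last pair as high drinkers, early and late. Each pool was hybridized once, so the spread between arrays of a group is a spread between pools, and the number of arrays, 3 against 9 or 3 against 3, limits the precision of every value.

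Metabotropic glutamate receptors are G protein-coupled receptors for glutamate, the main excitatory transmitter of the brain. Group I receptors, to which the product of Grm5 belongs, couple to Gq proteins, activate phospholipase C and lie mostly after the synapse, held there by Homer and Shank scaffolds. Group II receptors, encoded by Grm2 and Grm3, and group III receptors, encoded by Grm4, Grm6, Grm7 and Grm8, couple to Gi and Go proteins, lower cyclic AMP and dampen transmitter release from nerve terminals. Grm3 is also made by astrocytes. The receptors of Grm2 and Grm5 have been widely studied in alcohol seeking in rodents.

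Levels are given as scaled log2 signal, that is log2 of the array signal after background correction minus the 75th percentile of that array, so that 0 is the 75th percentile. A level describes 1 probe, and levels of different probes were not compared. Of the 12 probes, 10 were well above background on all 12 arrays, the Grm4 probe was so on 7, and Grm2 probe 687 on none. Grm2 probe 687, which was designed on an unclassified cDNA, failed the signal/noise filter on most arrays and was not tested, which left 11 tested probes. The array files place probe 687 on the opposite strand of the genome to Grm2 probe 711. The percentage of spots well above background lay between 67.0% and 79.3% on the 12 arrays. The arrays came on 3 slides. All water pools shared slide 1 with low drinker pool 1. Low drinker pools 2 and 3 shared slide 2 with the first 2 early pools, and the late pools shared slide 3 with early pool 3. Slide 1 was also scanned on another day than slides 2 and 3. Slide, scan day and group therefore cannot be told apart between water and any drinker pool but low drinker pool 1. Among drinkers, low and early pools share slide 2 and early and late pools share slide 3, while low and late pools share no slide. Low drinker pool 1 was scanned on the day of the water pools, and all other drinker pools on the other day. The array of low drinker pool 2 stood apart at the dim end, with a 25th percentile of the signal of 63.2 against 22.3 to 34.0 on the others. Of 12 genes fixed as hypothalamic markers, 11 were measured on all 12 arrays, and their summed signal was 161 to 192 times the 75th percentile in water pools and 168 to 218 in drinker pools. The gene for Otp, a transcription factor of hypothalamic neurons, was well above background on no array. The summed signal of 8 thalamic markers, genes of the neighboring thalamus, varied more, from 10.2 to 11.6 in water pools and from 7.28 to 24.0 in drinker pools.

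The results below turn on the tested probe of Grm2 and on Grm7 probes 1444 and 2921, so their sequences are shown, with that of the third Grm7 probe for comparison. Each is a 60-base probe taken from the array files, written 5′ to 3′ in the sense of the transcript, with its place in the mouse genome (build mm9) as the files give it. Grm7 probe 1147 (chr6:111016897-111030371, plus strand) and Grm7 probe 2921 (chr6:111445847-111516024, plus strand) each cross at least 1 intron, since their spans on the genome are 13475 and 70178 bases. Grm7 probe 1444 (chr6:111196169-111196228, plus strand) and Grm2 probe 711 (chr9:106553374-106553433, minus strand) each lie in 1 unbroken stretch. The number of a probe is its first base in the transcript it was designed on, and each of these 4 probes had at least 1 reading frame without a stop codon. The array files do not say which exon a probe lies in.
Grm7 probe 1147: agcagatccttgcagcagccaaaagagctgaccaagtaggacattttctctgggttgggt
Grm7 probe 1444: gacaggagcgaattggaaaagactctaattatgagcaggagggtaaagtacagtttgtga
Grm7 probe 2921: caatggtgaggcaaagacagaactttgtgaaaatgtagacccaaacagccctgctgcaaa
Grm2 probe 711: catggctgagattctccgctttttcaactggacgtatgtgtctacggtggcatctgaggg

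Of the 11 tested receptor probes, 9 were higher and 2 were lower in the 9 alcohol arrays than in the 3 water arrays. Over all 32376 probes tested, 19304 were higher and 13072 were lower. The median difference was 0.07 on the log2 scale for the receptor probes and 0.03 over all probes tested. The differences ran from -0.12 for Grm4 to 0.57 for Grm7 probe 1444. Median scaling moved each of them by -0.055, which turned Grm5 probes 5049, 1194 and 5943 below 0. No receptor probe passed an adjusted p of 0.05 in limma, and over all probes the percentage called was 0. At an unadjusted limma p under 0.05, 1 of the 11 probes was called, Grm7 probe 2921, where 5.53% of all probes were called. That call was lost with slide as a block, fixed or random, with scan day as a block, with median scaling, with a test for unequal variances and without water pool 2. Every alcohol array was above every water array for 1 of the 11 probes, Grm7 probe 1444, and for 0.982% of the probes with a value on all arrays. In bulk tissue, fewer cells of a type and less RNA per cell cannot be told apart.

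**Figure D1:**
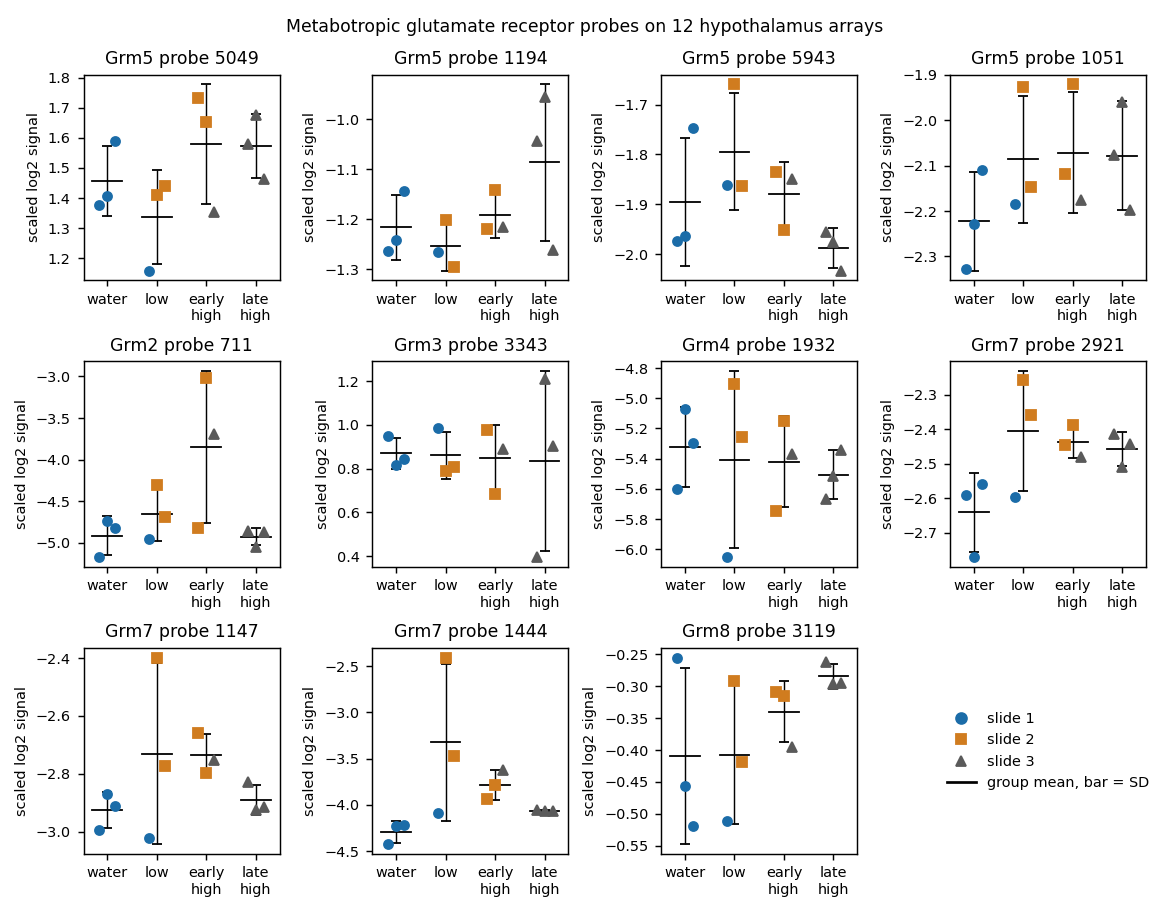
Scaled log2 signal (vertical axis, 0 is the 75th percentile of the array) of the 11 tested receptor probes in each of the 12 pools, by group, with symbols for the slide, horizontal lines for group means and bars for the SD (n = 3). For Grm7 probe 1444 the 9 drinker pools lie above the 3 water pools, with low drinker pool 2 highest at -2.41, and for Grm2 probe 711 early pools 2 and 3 lie above all the others.

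Grm7 encodes a group III receptor of the active zone of nerve terminals, with low affinity for glutamate, and its 3 probes were all higher on average in alcohol arrays, by unequal amounts. Probe 1444 was at -4.43, -4.23 and -4.22 in the water pools and at -4.09, -2.41 and -3.47 in the low drinker pools. In the early pools it was at -3.94, -3.79 and -3.62, and in the late pools it was at -4.06, -4.06 and -4.07. The drinker pools were all above the water pools, low drinker pools 2 and 3 were the first and second highest of the 12, and low drinker pool 1 and the late pools lay nearest to water. The difference between alcohol and water was 0.57 ± 0.30 (SE), which is 1.48-fold (limma adjusted p = 0.819; exact two-sided permutation p = 0.109). Without low drinker pool 2, whose array had a higher 25th percentile of the signal than all others, the difference was 0.41 ± 0.14 (limma adjusted p = 0.647). The part of that higher signal at the dim end of the array in the level of this probe was not tested.

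Probe 2921 of Grm7 was at -2.59, -2.77 and -2.56 in the water pools and at -2.60, -2.26 and -2.36 in the low drinker pools. It was at -2.45, -2.39 and -2.48 in the early pools and at -2.42, -2.51 and -2.44 in the late pools. Of the 9 drinker pools, 8 were above every water pool, and low drinker pool 1 lay within the range of the water pools. The difference was 0.21 ± 0.07 (SE), or 1.15-fold (limma adjusted p = 0.819; exact two-sided permutation p = 0.0136). The permutation takes no account of slide, and the difference was 0.17 ± 0.08 with slide as a random block (limma adjusted p near 1) and 0.04 ± 0.10 with slide as a fixed block, which sets low drinker pool 1 alone against water. Probe 1147 was at -2.87 or lower in the water pools and between -3.02 and -2.40 in the drinker pools, with overlap, and differed by 0.14 ± 0.11 (limma adjusted p = 0.827). On slide 1 alone, low drinker pool 1 differed from the mean of the 3 water pools by 0.21 for probe 1444, by 0.04 for probe 2921 and by -0.10 for probe 1147.

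**Figure D2:**
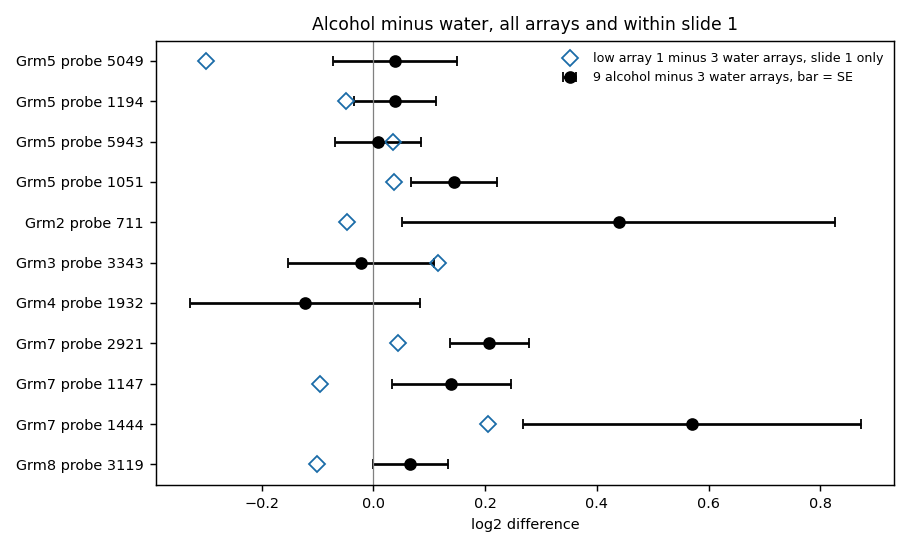
Log2 difference between 9 alcohol and 3 water arrays (filled points, bars are the SE of the limma fit) for the 11 tested receptor probes, with the difference between low drinker pool 1 and the 3 water pools on slide 1 (open diamonds; none for Grm4, which was not well above background in that pool). The slide 1 difference is nearer to 0 than the overall one for Grm2, Grm5 probe 1051 and the 3 Grm7 probes and farther from 0 for Grm3, Grm8 and the other Grm5 probes, and it is below 0 for Grm2, Grm8, Grm7 probe 1147 and Grm5 probes 5049 (-0.30) and 1194.

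By group, Grm7 probe 1444 differed from water by 0.97 ± 0.33 in low drinkers (limma adjusted p = 0.506), by 0.51 ± 0.33 in early drinkers and by 0.23 ± 0.33 in late drinkers, with limma adjusted p of 0.886 and 0.779. For probe 2921 the differences were alike in size, 0.24 ± 0.09 in low, 0.20 ± 0.09 in early and 0.18 ± 0.09 in late drinkers, with a limma adjusted p of 0.514 in low drinkers. These were the 2 of 11 receptor probes at an unadjusted limma p under 0.05 in low drinkers, where 9.15% of all probes were so called and 0.179% passed the adjusted p. Both calls were lost with slide as a fixed block, which leaves low drinker pool 1 alone against water and gave 0.21 ± 0.33 for probe 1444 and 0.04 ± 0.10 for probe 2921. The same block turned the differences below 0 in early and late drinkers, to -0.72 and -1.16 for probe 1444 and to -0.06 and -0.04 for probe 2921. Whether the Grm7 probes passed the adjusted p depended on low drinker pool 1, which shared the slide and scan day of the water pools. Without it, probe 1444 was higher in low drinkers by 1.35 ± 0.25 (limma adjusted p = 0.0128) and probe 2921 by 0.33 ± 0.08 (limma adjusted p = 0.0342), and 2506 of all probes passed in place of 57. The low drinker pools that remain are then all on slide 2, and slide and group cannot be told apart. Without low drinker pool 2 the differences were 0.51 ± 0.16 and 0.16 ± 0.09, with limma adjusted p near 1 for both. The call of probe 2921 was also lost without low drinker pool 3 (0.21) and without water pool 2 (0.17), with slide as a random block (0.20), and with each other scaling tried, at 0.09 with median scaling, 0.13 with quantile normalization and 0.16 without scaling. The 8 thalamic markers had a median relative to the water mean of 0.41 and 0.53 in low drinker pools 2 and 3, with 8 of 8 above that mean in both, and of -0.37 in low drinker pool 1, with 0 of 8 above it. Their part in the level of Grm7 was not tested.

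Grm2 encodes a group II receptor found mostly on nerve terminals, where it limits glutamate release, and its tested probe was highest in part of the early drinker pools. Probe 711 was at -5.17, -4.74 and -4.82 in the water pools and at -4.96, -4.30 and -4.69 in the low drinker pools. In the early pools it was at -4.82, -3.02 and -3.69, and in the late pools at -4.86, -5.04 and -4.87. Early pools 2 and 3 were above all other pools, early pool 1 lay among the water pools, and the late pools overlapped with water. Early drinkers differed from water by 1.07 ± 0.37 (SE), or 2.10-fold (limma adjusted p = 0.886). With slide as a fixed block the difference was 0.53 ± 0.74 (limma adjusted p = 0.951) and was no longer at an unadjusted p under 0.05. This was the 1 of 11 receptor probes at an unadjusted limma p under 0.05 in early drinkers, where 4.8% of all probes were so called and 0% passed the adjusted p. Low drinkers differed from water by 0.26 ± 0.37 and late drinkers by -0.01 ± 0.37, and over all 9 alcohol arrays the difference was 0.44 ± 0.39 (limma adjusted p = 0.842; exact two-sided permutation p = 0.314). With slide as a fixed block, late drinkers differed from water by -0.71, and low drinkers, then through low drinker pool 1 alone, by -0.05.

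Late drinkers differed from early drinkers in Grm2 by -1.08 ± 0.38 (limma adjusted p = 0.351). Each late pool was below each early pool, and the same held for Grm5 probe 5943 and Grm7 probes 1147 and 1444. For Grm8 each late pool was above each early pool. The share of all probes that separate in this comparison was not counted. Without early pool 2 the Grm2 difference was -0.67 ± 0.31, a fixed slide block gave -1.24 ± 0.56, and in neither fit was it at an unadjusted p under 0.05. Without early pool 1 it was -1.57 ± 0.24. This was the 1 of 11 receptor probes at an unadjusted limma p under 0.05 between late and early drinkers, where 12.1% of all probes were so called and 0% passed the adjusted p. Within slide 3, the mean of the 3 late pools minus early pool 3 was -1.24. Within slide 2, the early pools were on average 0.58 above the low drinker pools, with early pool 1 below both of them and early pool 2 above both. Without early pool 1 the difference between early drinkers and water was 1.56 ± 0.24, and without early pool 2 it was 0.66 ± 0.31, with a limma adjusted p of 0.975 and 0.999, and the call was lost without early pool 2 and without water pool 1 (0.94). The 8 thalamic markers had a median of -0.53 relative to the water mean in early pool 2, with 0 of 8 above that mean, and of 0.64 in early pool 3, with 8 of 8 above it, and the 5 cortical markers with values were at 0.03 and -0.25. Of the pituitary markers, Cga, Tshb and Lhb were measured on all arrays, and their summed signal was 0.889 to 3.33 times the 75th percentile in the early pools against 3.10 to 11.7 in water pools. The part of these markers in the level of Grm2 was not tested.

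**Figure D3:**
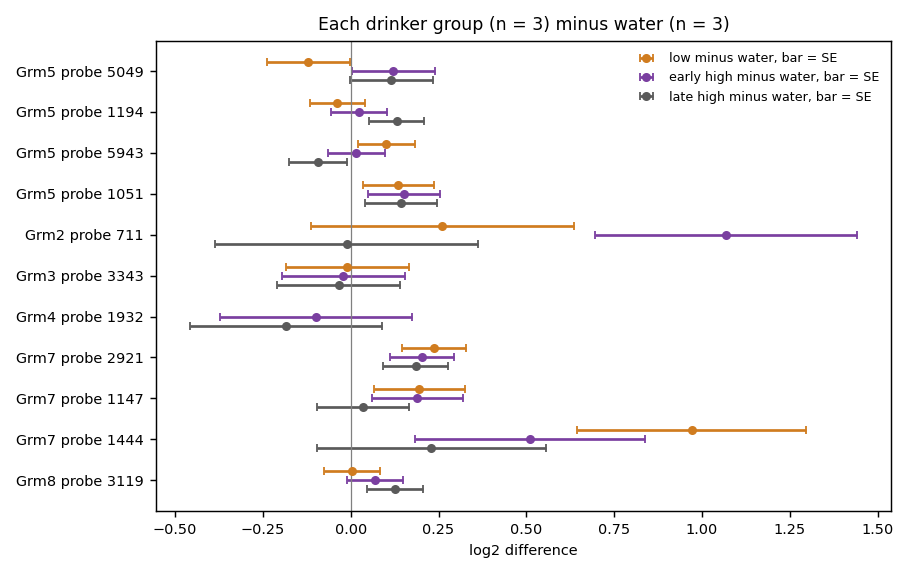
Log2 difference of low, early and late drinkers from water (3 pools each, bars are the SE of the limma fit) for the 11 tested receptor probes, with no value for Grm4 in low drinkers, where it was not well above background. The points farthest from 0 are Grm2 probe 711 in early drinkers at 1.07 and Grm7 probe 1444 in low drinkers at 0.97.

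Grm3, the other group II gene, was at 0.95, 0.82 and 0.84 in the water pools, and its drinker pools ran from 0.39 to 1.21 around a median of 0.89. The lowest and the highest drinker pool were late pools 1 and 2. The mean difference between alcohol and water was -0.02 ± 0.13 (limma adjusted p = 0.979), and the differences of the 3 drinker groups from water lay between -0.03 and -0.01. The SD was 0.41 over the late pools and 0.07 over the water pools.

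Grm4, a group III gene, gave a dim signal. It was well above background in 2 of 3 water pools, in 2 of 3 early pools, in all 3 late pools and in none of the low drinker pools, so no difference is given for low drinkers. Its level was between -5.60 and -5.07 in the water pools and between -6.05 and -4.91 in the drinker pools, and the ranges overlapped. Alcohol arrays, of which 5 of 9 were well above background, differed from water by -0.12 ± 0.21 (limma adjusted p = 0.909), a value that includes the 3 low drinker pools at their dim signal. With slide or scan day as a fixed block it was -0.73, which sets low drinker pool 1 alone against water. With scan day as a block, the difference from water moved from -0.10 to -1.07 in early and from -0.18 to -1.16 in late drinkers. Both rest on that pool, in which Grm4 was not well above background.

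Grm8, the remaining group III gene, encodes a receptor of nerve terminals with higher affinity for glutamate than that of Grm7. It was at -0.25, -0.46 and -0.52 in the water pools and at -0.26, -0.30 and -0.29 in the late pools, with low and early pools between -0.51 and -0.29. The late pools lay above 2 of the 3 water pools and below the third. The difference from water was 0.00 ± 0.08 in low, 0.07 ± 0.08 in early and 0.13 ± 0.08 in late drinkers, and 0.07 ± 0.07 over all alcohol arrays (limma adjusted p = 0.855). No receptor probe was called at an unadjusted limma p under 0.05 between late drinkers and water, a comparison in which 15.7% of all probes were so called and 0% passed the adjusted p.

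Grm5, the group I gene, encodes a receptor that raises intracellular calcium through phospholipase C. Its 4 probes differed from water by 0.04 ± 0.11 for probe 5049, 0.04 ± 0.07 for probe 1194, 0.01 ± 0.08 for probe 5943 and 0.14 ± 0.08 for probe 1051, with limma adjusted p between 0.819 and 0.989. Probe 1051 was at -2.33, -2.23 and -2.11 in the water pools, and its drinker pools ran from -2.20 to -1.92 around a median of -2.12. Its ranges in water and alcohol arrays overlapped.

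Between high and low drinkers, Grm5 probe 5049 was the 1 of 11 receptor probes at an unadjusted limma p under 0.05, in a comparison where 15.5% of all probes were so called and 0.0744% passed the adjusted p. It was at 1.16, 1.41 and 1.44 in the low drinker pools, at 1.73, 1.65 and 1.35 in the early pools and at 1.58, 1.68 and 1.46 in the late pools. Of the 6 high drinker pools, 5 were above every low drinker pool. The difference was 0.24 ± 0.10 (limma adjusted p = 0.307), and the other probes of the gene differed by 0.12 ± 0.07 (probe 1194), -0.14 ± 0.07 (probe 5943) and 0.01 ± 0.09 (probe 1051). Without low drinker pool 1, the difference of probe 5049 was 0.15 ± 0.11. The unadjusted call was lost there and also without early pool 1 or 2, late pool 1 or 2, or water pool 1 or 2, each left out in turn, with differences of 0.20 to 0.24, and with normexp (0.23), the authors' table (0.24), scan day as a block (0.15) and the replicate number as a block (0.24). Within slide 2, early pools 1 and 2 exceeded low drinker pools 2 and 3 by 0.27 on average. Grm7 probe 1444 differed between high and low drinkers by -0.60 ± 0.28 (limma adjusted p = 0.341), and without low drinker pool 1 it fell by 0.98 (limma adjusted p = 0.0352), where 2505 of all probes passed in place of 24. Without low drinker pool 2 it differed by -0.14 ± 0.15 (limma adjusted p = 0.818).

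The partners of the receptors were followed in 5 lists of 78 genes in all, each through its probe with the highest mean over the 12 arrays. In alcohol against water, 77 genes were tested, 4 were higher and 1 was lower at an unadjusted limma p under 0.05, and none passed the adjusted p. Over all 32376 probes tested, 1246 were higher and 543 lower at that p, or 5.53% in all, a share near that of the 77 genes. The medians of the lists ran from -0.00 to 0.06 on the log2 scale, beside 0.03 over all probes tested. In the list of group I coupling and scaffold genes, 3 of 24 were higher at an unadjusted p under 0.05 and none was lower. Prkca, which encodes a protein kinase C activated downstream of Gq, was at -3.14, -3.27 and -3.25 in the water pools and between -3.08 and -2.82 in the drinker pools. These ranges did not overlap, and every alcohol array was likewise above every water array for 0.982% of the probes with a value on all arrays. The difference for Prkca was 0.24 ± 0.06 (limma adjusted p = 0.819) in a fit that takes no account of slide, and all water pools shared 1 slide. Plcb4, a phospholipase C of the same cascade, differed by 0.26 ± 0.12, and Dlgap2, which encodes a postsynaptic scaffold protein, by 0.22 ± 0.09.

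In the list of group II and III coupling and binding partners, none of the 19 tested of 20 genes was at an unadjusted p under 0.05, and the smallest p belonged to Calm2, a calmodulin gene, at 0.10 ± 0.05, and to Elfn1, which encodes a postsynaptic protein that binds group III receptors, at -0.20 ± 0.10. Grm6 was well above background on 2 of 12 arrays and was not tested. None of 14 desensitization and RGS genes was at an unadjusted p under 0.05, and those with the smallest p were Grk4, a receptor kinase gene, at 0.33 ± 0.17 and Rgs8 at 0.12 ± 0.07. In glutamate supply and clearance, 1 of 14 genes was lower at that p, and the 1 counted as higher, which is also 1 of the 4 of 77 above, was Slc17a7, whose water values were not well above background. Slc7a11, the cystine-glutamate exchanger, was at -1.14 or higher in the water pools, its drinker pools ran from -1.58 to -1.07, and it differed by -0.28 ± 0.10 (limma adjusted p = 0.819). Slc17a7, a vesicular glutamate transporter gene and also 1 of the cortical markers, was well above background in none of the 3 water pools and 5 of the 9 drinker pools, and its drinker mean was not above the average of the lowest signals measured well above background in the water pools, so no fold is given. None of 6 genes of the turnover of N-acetylaspartylglutamate, a peptide agonist of the Grm3 receptor, was at an unadjusted p under 0.05, with the smallest p for Folh1 at 0.10 ± 0.08 and Aspa at -0.12 ± 0.11.

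**Figure D4:**
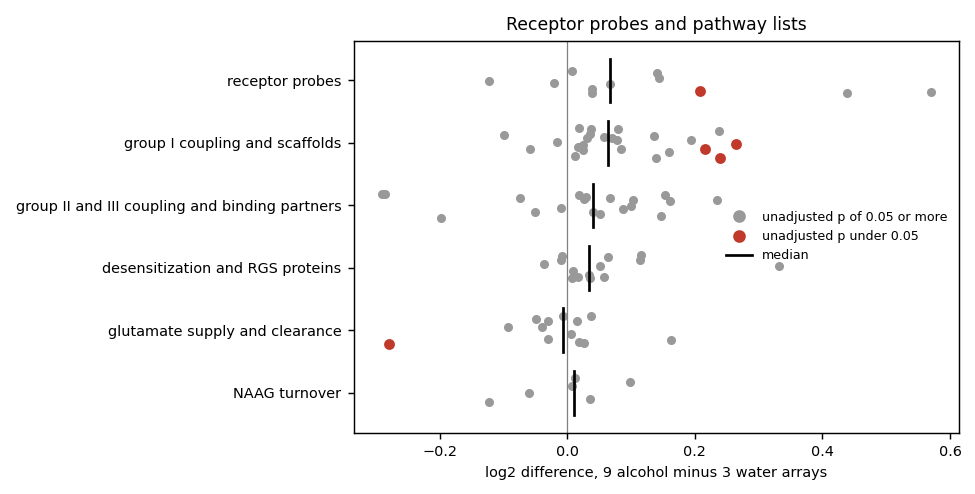
Log2 difference between 9 alcohol and 3 water arrays for the 11 tested receptor probes and for the genes of 5 pathway lists, 1 point per probe or gene, with red points for an unadjusted limma p under 0.05 and vertical lines for the median. Slc17a7, not well above background in water pools, is left out, and the medians of the lists lie between -0.00 and 0.06.

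Some genes followed a receptor closely over the 12 arrays, and genes among the 3 with the highest Pearson r of 15004 are given as a description, since all share the same arrays and slides. For Grm7 through probe 2921 they were Prpf38b (r = 0.912), Ccdc15 (r = 0.890) and E430013K19Rik (r = 0.890), with n = 12 arrays. For Grm2 they were Dapl1 (r = 0.863), 5730507C01Rik (r = 0.839) and Snap47 (r = 0.815), and for Grm5 through probe 5049 they were Arhgap10 (r = 0.922), Ubap2l (r = 0.917) and Zranb2 (r = 0.882). For Grm3 they were A230069A22Rik (r = 0.879), Tmem125 (r = 0.869) and P2ry13 (r = 0.862), and for Grm8 they included Gm941 (r = 0.920) and Me2 (r = 0.903). For Grm4, whose signal was dim, they included Grina (r = 0.842) and Hemk1 (r = 0.830).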

How the data were processed

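The authors deposited the scanner output of 12 single-color Agilent arrays, with a signal intensity per spot on a linear scale, and a table with the same intensity per probe. The intensities were corrected for background by Feature Extraction and not scaled between arrays. The headers of the scanner output give Feature Extraction 10.5.1.1 and genome build mm9, whereas the paper names an earlier version of this software. Here log2 intensities were scaled to the 75th percentile of each array over its 43379 non-control spots. Spots marked as non-uniform outliers, or below 2 in the ratio of signal to noise, were treated as missing. Spots of a probe were averaged, and tests required values on over 50% of the arrays in each of the compared groups. Arrays had 75th percentiles of 1512 to 1853 intensity units and no saturated spot. The sample labels give day 51 and the series' design day 57 as the end of the experiment.

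Groups were those of the labels. Alcohol and water were compared in a 2-group fit, and the other comparisons were contrasts of a 4-group fit, with limma 3.58.1 in R 4.3.3 (lmFit, eBayes, Benjamini-Hochberg adjustment over all probes tested). Single probes were also compared by an exact permutation test over arrays. The members and gene lists were chosen with earlier results of these data known. Every receptor probe was described. From each pathway list, genes at an unadjusted p under 0.05 in alcohol against water were named, at most 4, and otherwise the 2 with the smallest p. Genes most like a receptor were the 3 with the highest Pearson r among genes well above background on all 12 arrays, other receptors left out. Some genes that these rules name are not reported here. The 11 marker lists covered hypothalamus, thalamus, cortex, striatum, pituitary, choroid plexus, neurons, astrocytes, oligodendrocytes, their precursors and microglia. Alternatives covered background correction (normexp, offset 50), scaling, the authors' table, filters, slide, scan day and replicate number as blocks, the methods' t-test, its form for unequal variances and each array left out. The steps were tested on simulated data. No pair of arrays held identical values. Figures were drawn with matplotlib 3.10.9.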

Additional observations from a re-analysis of the deposited data

Results flagged for a closer look

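Grm7 probe 1444 had 1 value far above the rest among the 9 drinker arrays, in low drinker pool 2. Its scaled log2 signal was -2.41 against -3.47 in low drinker pool 3, the nearest array, and this gap was 0.635 of the whole range of the 9 drinker arrays, more than Dixon's test for an outlier allows with 9 samples. This was 1 of the 11 probes looked at, and chance flags about 1 in 20. On the same array the 25th percentile of the signal was 63.2, against 34.0 in low drinker pool 3, the second highest. The other Grm7 probes were also highest in low drinker pool 2 among the 12 arrays, at -2.26 for probe 2921 and -2.40 for probe 1147.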

How the results depend on the processing

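The values are limited by the number of arrays and by the slide and scan day that the water pools share, and the probes of Grm4, Grm2 and Grm7 probe 1444 are dim. Over 27 alternatives for alcohol against water, no receptor probe passed the adjusted p, and Grm7 probes 2921 and 1444 and Grm5 probe 1051 stayed above 0, between 0.04 and 0.25, 0.21 and 0.62, and 0.04 and 0.20 on the log2 scale. With slide or with scan day as a fixed block, both of which leave low drinker pool 1 as the only drinker array to set against water, the difference was -0.30 for Grm5 probe 5049, 0.12 for Grm3, -0.050 for Grm5 probe 1194, -0.10 for Grm8, -0.047 for Grm2 and -0.10 for Grm7 probe 1147, each turned in direction, and -0.73 for Grm4, which was not well above background in that pool, and 681 and 543 of all probes were at an unadjusted p under 0.05 (1789 without the block) and 4 and 1 at an adjusted p under 0.05 (0 without). With slide as a random block, Grm5 probe 5049 was at -0.049 and Grm3 at 0.014, no receptor probe (0) and 527 of all probes were at an unadjusted p under 0.05. Quantile normalization turned Grm5 probe 5943 to -0.022, and median scaling turned it to -0.047 and Grm5 probes 5049 and 1194 to -0.017 each. Median scaling moved every difference by -0.15 between low drinkers and water and by 0.14 between high and low drinkers. All probes at an unadjusted p under 0.05 numbered 1105 with normexp and 3667 with a test for unequal variances, and 1169 to 2919 with 1 array left out.

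Receptor probes at an unadjusted p under 0.05 are counted next, with the number among all probes in brackets. For alcohol against water they numbered 2 without scaling (1635). For low drinkers against water they numbered 1 without scaling (2554), with slide as a random block (1791) and with scan day as a block (1067). That probe was Grm7 probe 1444, except with scan day as a block, where it was Grm4, lower in low drinkers and well above background in none of their pools. With slide as a fixed block (993) they were Grm4 and Grm5 probe 5049, both lower, and neither Grm7 probe. In place of Grm7 probe 2921, Grm5 probe 5049 was called with median scaling (3499) and Grm4 with quantile normalization (3035), both lower, and in alcohol against water Grm7 probe 1444 took its place with median scaling (1967). For early drinkers against water they numbered 2 with normexp (1378), quantile normalization (1624) and the limit to probes well above background on all 12 arrays (1298). For late drinkers against water they numbered 1 with quantile normalization (5136), median scaling (3851) and slide as a fixed block (2557), 2 with scan day as a block (5403) and 4 without scaling (5491), and with either fixed block Grm4 was among them, lower in late drinkers. The other probe with scan day as a block was Grm7 probe 1147, turned from 0.04 to -0.40. With either fixed block the 1 probe in alcohol and in early drinkers against water was likewise Grm4, lower. For high against low drinkers they numbered 2 with normexp (6945) and slide (4642) and scan day (8585) as fixed blocks, 3 with quantile normalization (5004), median scaling (5947) and no scaling (5144), and 0 with the authors' table (8361). Grm5 probe 5049 was not among them with normexp, where they were Grm5 probe 5943 and Grm7 probe 1444, nor with scan day as a block, where they were Grm7 probes 1444 and 1147, all lower in high drinkers. With scan day as a block, 1 receptor probe passed the adjusted p there, Grm7 probe 1444 at -0.98 (limma adjusted p = 0.026), and so did 3714 of all probes. For late against early drinkers they numbered 2 without scaling (5248) and 0 with slide as a fixed block (1857). With 1 array left out they numbered 0 to 2 for alcohol against water (1169 to 2919), 1 to 3 for low (1108 to 6320), 0 to 4 for early (987 to 2693) and 0 to 1 for late drinkers against water (3547 to 5761), 0 to 2 for high against low (2742 to 7901) and 0 to 2 for late against early drinkers (2378 to 4848), and at an adjusted p 0 to 2 for low drinkers against water (1 to 2506) and 0 to 1 for high against low drinkers (0 to 2505). Leaving out 1 array moved Grm4 between -0.26 and 0.0037, Grm5 probe 5943 between -0.032 and 0.082, Grm5 probe 5049 between -0.0025 and 0.10 and Grm3 between -0.067 and 0.035. As a choice made after the data were seen, single probes were also recomputed in the comparisons other than alcohol against water. The 5 differences at an unadjusted p under 0.05 there kept their direction, and of all 55 differences of the 11 probes 38 turned under at least 1 alternative.

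Replicate numbers are shared between groups, but same-numbered arrays of different groups had correlations of their deviations between -0.09 and 0.18, with a median of -0.00, so the numbers were not taken to pair the pools. With the replicate number as a block, 1 receptor probe was at an unadjusted p under 0.05 in alcohol against water, Grm7 probe 2921 at 0.21 (limma adjusted p = 0.860), and 0 in high against low drinkers, where 1684 and 4932 of all probes were so called. The cause of these shifts was not tested.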

Other observations

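Marker genes of other cell types and neighboring tissue were taken as medians relative to the mean of the water pools on the log2 scale, over all 12 arrays. They lay between -0.03 and 0.09 for 4 neuron markers, between -0.08 and 0.21 for 6 astrocyte markers and between -0.06 and 0.20 for 6 oligodendrocyte markers. They lay between -0.08 and 0.13 for 4 markers of oligodendrocyte precursors, between -0.11 and 0.25 for 6 microglia markers, between -0.15 and 0.09 for 7 striatum markers and between -0.26 and 0.22 for 5 choroid plexus markers. For 5 cortex markers they lay between -0.33 in late pool 1 and 0.21 in low drinker pool 2. The widest ranges were those of 3 pituitary markers, from -2.38 in early pool 2 to 0.41 in low drinker pool 3, and of 8 thalamus markers, from -0.53 in early pool 2 to 1.00 in late pool 3.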
